A study of Mus musculus with 8 samples.

Results

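The genes described here are 39 transcripts of the hypoxia-inducible factor (HIF) system, of glycolysis and of the hypoxia response, chosen by symbol from a fixed list and found as 39 of the 53647 genes of the count table. They comprise 22 glycolytic enzymes and transporters, 5 HIF regulators and 12 HIF target genes outside glycolysis. RNA was measured by polyA sequencing in 8 libraries of C57BL/6 mouse leukemia macrophages. The 4 E-Mac libraries came from macrophages educated for 12 h in a shared culture with mesenchymal stromal cells (MSC), the fibroblast-like support cells of bone marrow, and then sorted. The 4 Mac libraries came from leukemia macrophages sorted after 12 h of culture without MSC. The sources used here do not give the leukemia model, the sort markers, the origin of the MSC, the oxygen level or the glucose supply. Whether the libraries of a group are separate animals or separate cultures is not stated in the labels, so the spread behind each p-value is that among these libraries and may be technical.

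HIF is a transcription factor made of an oxygen-sensitive alpha subunit and a stable partner, ARNT. In the presence of oxygen, prolyl hydroxylases mark the alpha subunit for destruction, and when oxygen falls or when inflammatory signals raise its transcription, HIF accumulates and induces glucose transporters, nearly every enzyme of glycolysis, lactate exporters and genes that restrain mitochondria. In macrophages, HIF-1 and the shift to glycolysis are best known from inflammatory activation. Transcript levels are not enzyme activities, and HIF is regulated mostly as a protein, which was not measured here.

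Total counts ran from 13377046 to 15740846 in E-Mac and from 11646025 to 15556935 in Mac. CPM below are counts scaled to a library's total over the tested genes and by its TMM factor, a between-library scaling, and means are given ± SD of 4 libraries. The sum of 20 macrophage markers ran from 14665 to 18907 CPM in E-Mac and from 16788 to 18012 CPM in Mac, but Lyz2 alone made up 6147 ± 899.8 CPM in E-Mac and 11204 ± 359.6 CPM in Mac of it. Of the 20 markers 12 were called higher in E-Mac, 9 of them by 2-fold or more, among them Msr1 (3.39 ± 0.19), Cd14 (2.57 ± 0.10) and Fcgr1 (2.52 ± 0.14), and 4 were called lower. Without Lyz2, a sum taken after the values were seen, the markers summed to values from 9646 to 11841 CPM in E-Mac and from 6090.4 to 6548 CPM in Mac. The part of this difference in the results below was not tested. The sum of 21 granulocyte markers was lower in E-Mac, at 12818 to 20216 CPM against 37932 to 41949 CPM in Mac. Of the 21 markers 14 were called lower and 5 were not called. Cxcr2 (0.58 ± 0.18) and Mmp9 (0.56 ± 0.18) were called higher, with overlapping groups. The leading genes of the sum by CPM were S100a9 and Ngp. S100a9 stood at 4239.8 ± 1052 CPM in E-Mac and 9376 ± 649.9 CPM in Mac. Ngp stood at 1394 ± 397 CPM in E-Mac and 7785 ± 259.8 CPM in Mac. A smaller share of granulocytes in the sort and less RNA of these genes per cell cannot be told apart in bulk samples, and the part of this difference in the results below was not tested. Markers of B cells summed to at most 28.0 CPM in any library, and those of T and NK cells to less. The sum of 10 dendritic cell markers was 111 to 181 CPM in E-Mac and 213 to 241 CPM in Mac. Of these 10 markers 5 were called lower, among them Flt3 (-2.46 ± 0.19) and Cd209a (-6.52 ± 0.38), and 3 were not called. The other 2, Ccr7 (5.31 ± 0.36) and Siglech (3.14 ± 0.49), were called higher. The sum of 9 erythroid markers was 54.1 to 77.6 CPM in E-Mac and 68.7 to 91.9 CPM in Mac. Of the 6 tested, 5 were called lower. Tfrc (1.33 ± 0.12) was called higher, at 64.2 ± 9.75 CPM in E-Mac and 25.6 ± 3.60 CPM in Mac. The globin genes Hba-a1, Hba-a2 and Hbb-bs had no read in any E-Mac library, and Hbb-bs averaged 26.6 ± 5.13 CPM in Mac. Of 23 stromal markers, Fn1 alone made up most of the sum, at 774 ± 173 CPM in E-Mac and 3443 ± 249.8 CPM in Mac. The 7 collagen genes of that list summed to 53.5, 320.3, 41.5 and 351 CPM in E-Mac 1 to 4, against 5.16, 7.83, 6.82 and 5.30 CPM in Mac 1 to 4. E-Mac 2 and 4 held the most collagen transcripts, and the second principal component of all genes also separated them from the other E-Mac libraries. The collagen sum was taken after Fn1 had been seen to dominate the list. Of the 23 stromal markers 14 were tested, and 9 were called higher, all by 2-fold or more. Besides collagen genes these were Sparc (5.48 ± 1.07), Bgn (5.47 ± 1.15), Fbn1 (4.27 ± 0.68) and Acta2 (1.39 ± 0.39). Sparc stood at 8.73, 47.5, 5.05 and 48.5 CPM in E-Mac 1 to 4, against 0.603 ± 0.123 CPM in Mac. Fn1 and Vcam1 were called lower, also by 2-fold or more, and 3 were not called. Dcn and Lum, also fibroblast transcripts, were too low to test, at or near 0 in both groups. The part of stromal RNA in the results below was not tested. Where a call or value named below turned on E-Mac 2 and 4, it is given with and without them.

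Of the 39 genes 37 passed the filter on low counts, and 34 of these differed between the groups at an adjusted p under 0.05 (edgeR quasi-likelihood test, Benjamini-Hochberg over 13412 genes), 24 higher and 10 lower in E-Mac. Of all tested genes, 58.3% were called, 29.5% as higher and 28.8% as lower. Higher genes made up 50.6% of calls with TMM scaling and 37.4% with scaling by library size alone. The median log2 fold change, E-Mac over Mac, was 0.48 over the 37 genes and -0.00 over all 13412. Of the 37 genes 9 rose and 4 fell by 2-fold or more, and 20.1% of all tested genes were called at that size in either direction. Groups did not overlap in 32 of the 37, against 53.9% of all tested genes. Both Aldoa and P4ha2 were too low to test. A gene's parentheses hold its log2 fold change with the standard error, positive where E-Mac was higher (n = 4 each).

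**Figure D1:**
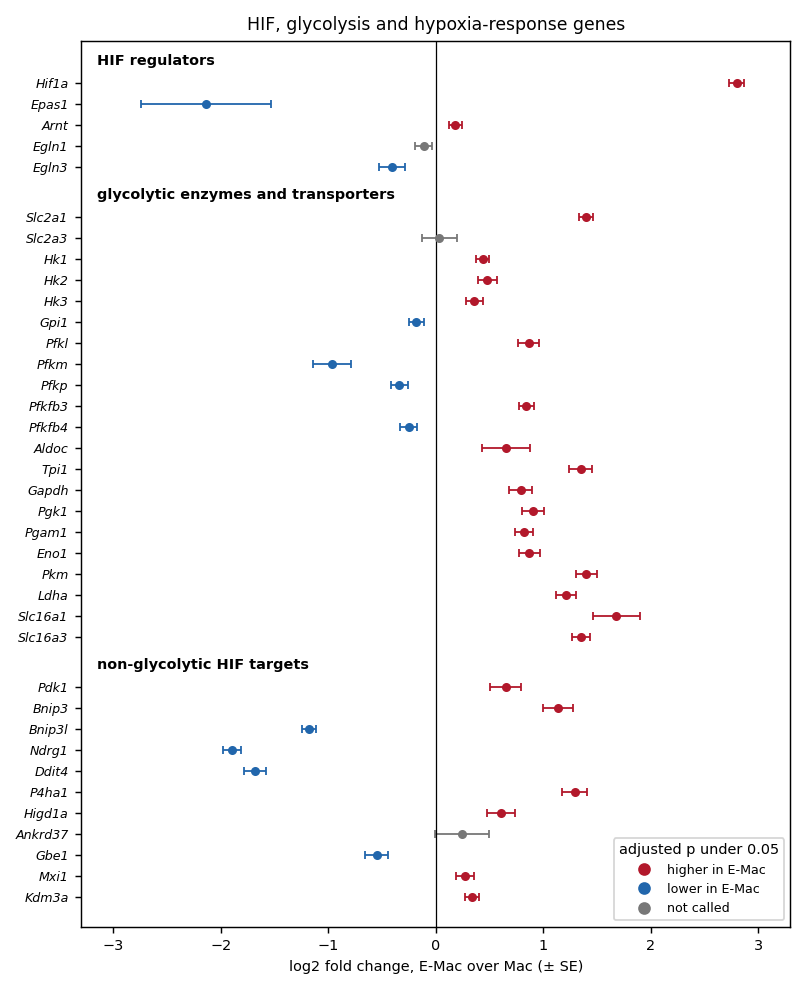
Log2 fold change, E-Mac over Mac, of the 37 tested genes, with bars of 1 standard error, in 3 role groups. Red points were called higher, blue points lower and grey points not called at an adjusted p under 0.05 (n = 4 libraries a group). Hif1a is farthest to the right at 2.80, glycolytic genes lie mostly between 0 and 1.68, and Ndrg1, Ddit4 and Bnip3l lie left of -1.

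HIF recognises DNA through the core letters ACGTG or GCGTG, and 35 of the 39 genes had an entry in RefSeq's table of start sites (build GRCm38.p6). In the 250 bases before the start, on either strand, 32 of these 35 genes carried at least 1 such core in at least 1 window. The share was 60.7% among the 9545 tested genes with an entry. Counted by window, 41 of 52 windows of these genes held a core, against 54.8% of windows of tested genes and 38.6% of all 32851 windows. The core was present before 23 of the 24 genes that rose and before 5 of the 7 that fell with an entry, so a core was not limited to the genes that rose. Slc2a3, Epas1, Bnip3l and Ndrg1 had no entry, so Epas1, Bnip3l and Ndrg1, which fell, were not counted. The letters CACGTG hold ACGTG on both strands and were counted once. The sequences below are the parts of 4 such windows outside annotated exons. They are shown because they stand before RefSeq starts of glycolytic genes that rose (Pgk1 and Ldha), a mitophagy gene that rose (Bnip3) and a stress gene that fell (Ddit4). The Ldha window lies within the span of that gene in GENCODE M21 (chromosome 7, 46841475 to 46855627). Bases just after its start were found in no GENCODE transcript of Ldha, whereas 44 of the 52 windows had such a match. Capitals mark the cores.
Pgk1, chrX:106186850-106187099, plus strand: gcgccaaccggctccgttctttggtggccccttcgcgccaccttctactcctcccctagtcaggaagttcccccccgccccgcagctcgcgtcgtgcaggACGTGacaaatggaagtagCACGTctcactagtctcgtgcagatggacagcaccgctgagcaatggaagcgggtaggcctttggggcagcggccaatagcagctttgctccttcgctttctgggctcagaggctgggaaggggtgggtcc
Ldha, chr7:46845554-46845803, plus strand: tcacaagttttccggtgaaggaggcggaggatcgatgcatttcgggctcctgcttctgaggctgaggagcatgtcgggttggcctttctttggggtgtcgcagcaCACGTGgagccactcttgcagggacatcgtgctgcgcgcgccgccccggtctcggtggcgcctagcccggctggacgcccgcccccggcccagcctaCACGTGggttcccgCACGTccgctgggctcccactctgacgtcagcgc
Bnip3, chr7:138909520-138909756, minus strand: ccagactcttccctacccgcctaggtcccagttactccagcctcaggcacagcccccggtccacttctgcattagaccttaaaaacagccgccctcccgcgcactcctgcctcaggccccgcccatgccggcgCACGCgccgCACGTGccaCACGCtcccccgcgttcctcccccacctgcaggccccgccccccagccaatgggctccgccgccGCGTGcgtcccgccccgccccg
Ddit4, chr10:59951835-59952020, minus strand: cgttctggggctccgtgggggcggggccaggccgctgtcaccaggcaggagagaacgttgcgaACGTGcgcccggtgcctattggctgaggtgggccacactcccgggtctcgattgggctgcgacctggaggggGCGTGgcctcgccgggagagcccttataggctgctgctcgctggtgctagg
A match is a description of letters and says nothing about binding in these cells.

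Among the HIF regulators, Hif1a, the oxygen-sensitive alpha subunit of HIF-1, showed the largest increase of the 37 genes (2.80 ± 0.07, 6.97-fold). It stood at 864, 936, 877 and 839 CPM in E-Mac 1 to 4, against 123, 131, 128 and 123 CPM in Mac 1 to 4. The E-Mac libraries lay within a narrow band far above Mac, and E-Mac 2 and 4 did not stand apart for this gene (edgeR adjusted p = 5.67e-12). Without E-Mac 2 and 4 the value was 2.79. Hif1a lies on chromosome 12, 73901375 to 73947530 on mm10, is annotated as protein coding, and 8.11% of its exon bases are overlapped by exons of other genes, Gm15283 on the opposite strand and Gm49321 on the same strand.

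Epas1, which encodes the alternative alpha subunit HIF-2 alpha, went the other way but at trace level (-2.13 ± 0.60, edgeR adjusted p = 0.00848). It had 12, 0, 8 and 2 reads in E-Mac 1 to 4, against 26, 12, 41 and 30 in Mac 1 to 4. Scaled to depth, the highest E-Mac value, 0.935 CPM in E-Mac 1, was just below the lowest Mac value, 0.999 CPM in Mac 2. E-Mac 2 had no read, where a count of 0 allows up to 3 reads. Without E-Mac 2 and 4 the log2 fold change was -1.26 (edgeR adjusted p = 0.0271, range across alternatives 0.000905 to 0.0337). Per kilobase of exon, Hif1a stood at 149 ± 6.95 CPM per kilobase in E-Mac and 21.4 ± 0.616 in Mac, and Epas1 at 0.0724 ± 0.0753 CPM per kilobase in E-Mac and 0.312 ± 0.112 in Mac. In both groups nearly all alpha-subunit transcript was therefore Hif1a.

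Arnt, the constitutive partner of the alpha subunits, was slightly higher (0.18 ± 0.06, edgeR adjusted p = 0.0218). Its levels were 99.4, 107, 100.4 and 107 CPM in E-Mac 1 to 4, against 89.9, 92.3, 94.3 and 89.4 CPM in Mac 1 to 4. The groups did not overlap, but they came within a few CPM of each other. Leaving out Mac 1, Mac 4, or the pair E-Mac 2 and 4 ended the call (edgeR adjusted p = 0.0558, 0.0620 and 0.0649, range across alternatives 0.0140 to 0.641), and 1 regulator was then called higher. Scaling by upper-quartile factors (0.083, edgeR adjusted p = 0.278) or by library size alone (0.035, edgeR adjusted p = 0.641) also ended the call of Arnt.

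None of the 3 prolyl hydroxylases that mark HIF for destruction was called higher with all libraries. Egln1, the main oxygen sensor, did not pass the test (-0.11 ± 0.08, edgeR adjusted p = 0.229), at 48.9, 47.0, 48.9 and 42.9 CPM in E-Mac 1 to 4, against 46.2, 53.8, 53.3 and 50.1 CPM in Mac 1 to 4. Its groups overlapped. Egln3, a hydroxylase that is itself a HIF target, fell (-0.41 ± 0.12, edgeR adjusted p = 0.0105) and stood at 9.12, 9.08, 9.70 and 11.1 CPM in E-Mac 1 to 4, against 14.3, 12.99, 11.6 and 12.8 CPM in Mac 1 to 4. All E-Mac libraries were below all Mac libraries for Egln3, by a narrow margin between E-Mac 4 and Mac 3. Egln2, the third hydroxylase, gave 0.12 ± 0.08 and did not pass, but it was called higher without E-Mac 2 and 4 (0.19). Per kilobase, Egln2 was the most abundant of the 3 hydroxylases, at 20.8 ± 1.85 CPM per kilobase in E-Mac and 19.2 ± 1.09 in Mac, followed by Egln1 at 13.1 ± 0.784 CPM per kilobase in E-Mac and 14.1 ± 0.978 in Mac and Egln3 at 3.66 ± 0.349 CPM per kilobase in E-Mac and 4.86 ± 0.412 in Mac.

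Of 17 other regulators of HIF that were listed, 14 were tested, 6 of which rose and 2 fell. The share called in either direction was 57.1%, against 58.3% of all tested genes, of which 29.5% rose and 28.8% fell. Neither Vhl, which directs hydroxylated HIF to destruction (-0.05 ± 0.09), nor Hif1an, the asparaginyl hydroxylase that blunts HIF activity (-0.08 ± 0.09), passed. The other parts of the VHL ligase that were called rose modestly, namely Elob (0.66 ± 0.10), Rbx1 (0.47 ± 0.08), Eloc (0.49 ± 0.09) and Cul2 (0.31 ± 0.11, groups overlapping). The chaperone P4hb (0.64 ± 0.11) and Os9 (0.30 ± 0.06) rose as well. The 2 that fell were Cited2 (-1.27 ± 0.08), which competes with HIF for its coactivators, and the hydroxylase-degrading ligase Siah2 (-0.98 ± 0.14). Cited2 averaged 92.4 ± 9.28 CPM in E-Mac and 223 ± 10.2 CPM in Mac. Crebbp (0.06 ± 0.09) and Ep300 (0.02 ± 0.08), the coactivators themselves, did not pass.

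**Figure D2:**
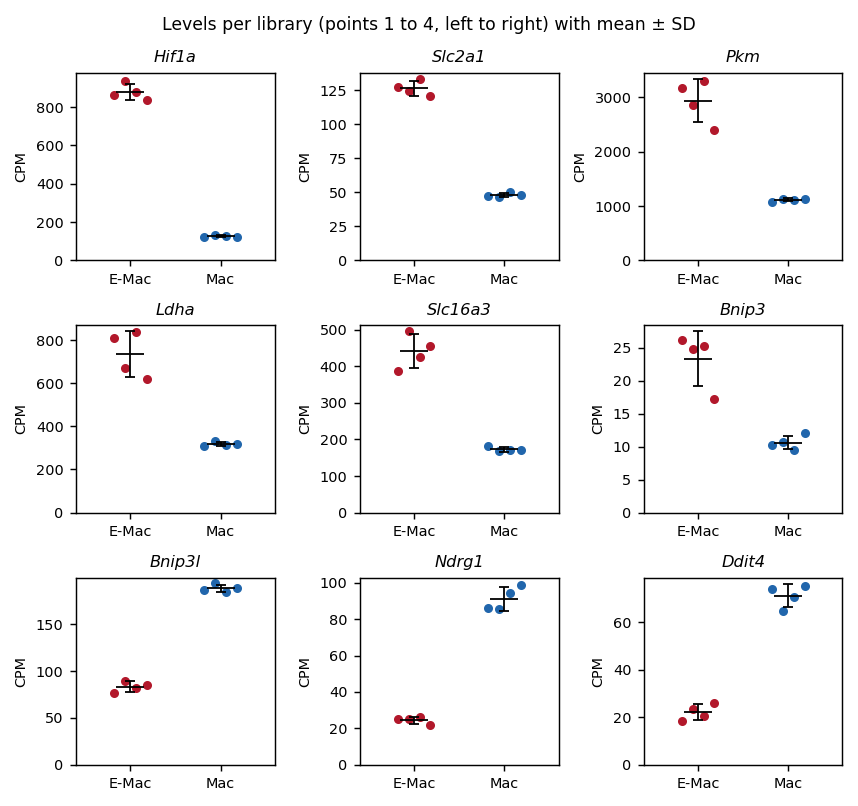
CPM of 9 genes in each E-Mac and Mac library. Points are libraries 1 to 4 from left to right, and the black bar is the mean ± SD of 4 libraries. Hif1a, Slc2a1, Pkm, Ldha, Slc16a3 and Bnip3 lie higher in every E-Mac library, and Bnip3l, Ndrg1 and Ddit4 lie lower in every E-Mac library.

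Of the 22 glycolytic enzymes and transporters 21 were tested, and 16 rose, 4 fell and 1 did not pass (edgeR, adjusted p under 0.05), with a median log2 fold change of 0.82. Of the 21 tested genes 6 rose by 2-fold or more with TMM scaling, and none fell by as much. Over all tested genes 29.5% rose and 28.8% fell, and 20.1% were called at 2-fold or more in either direction. Pfkm reached -1.11 with libraries scaled by total counts alone and -1.07 with upper-quartile factors. The highest values across alternatives were 1.10 for Pgk1, 1.02 for Eno1 and 1.01 for Pfkl. Summed over the 22 genes, the level was 8682 ± 702 CPM in E-Mac and 4928 ± 77.3 CPM in Mac (SD, n = 4 each). Without E-Mac 2 and 4 the counts were 16 higher and 5 lower. With libraries scaled by total counts alone, which moves the median log2 fold change of all genes by -0.14, they were 15 higher and 4 lower. The fallers numbered 2 without Mac 2, E-Mac 1 or E-Mac 3, because Gpi1 and Pfkfb4 lost their calls there.

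The glucose transporters Slc2a1 and Slc2a3 had different results. Slc2a1, which encodes the basal transporter GLUT1, rose (1.40 ± 0.06, edgeR adjusted p = 1.02e-09) and stood at 128, 124, 133 and 120.5 CPM in E-Mac 1 to 4, against 47.3, 46.2, 50.3 and 48.0 CPM in Mac 1 to 4. The 4 values of each group lay close together, with no overlap. Slc2a3, which encodes the high-affinity transporter GLUT3, did not pass (0.03 ± 0.16, edgeR adjusted p = 0.878), at 217, 344, 229 and 369.8 CPM in E-Mac 1 to 4, against 290.4, 299.7, 289.8 and 255 CPM in Mac 1 to 4. Here E-Mac 1 and 3 lay below every Mac library and E-Mac 2 and 4 above every Mac library. Without E-Mac 2 and 4, Slc2a3 fell by 0.34 on the log2 scale (edgeR adjusted p = 4.22e-05, range across alternatives 4.22e-05 to 0.982). Per kilobase of exon, Slc2a1 made up 48.1 ± 7.68% in E-Mac and 25.9 ± 1.66% in Mac of the pair. Among the other glucose transporters, Slc2a6 (0.53 ± 0.07) rose and Slc2a8 (0.15 ± 0.17) did not pass.

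All 3 hexokinases, which trap glucose in the cell by phosphorylating it, rose by similar small amounts. Hk3, the myeloid form, was 443, 416, 427 and 347 CPM in E-Mac 1 to 4, against 335, 311, 314 and 313 CPM in Mac 1 to 4 (0.36 ± 0.08). Hk2, the inducible form, was 171, 206, 189 and 235 CPM in E-Mac 1 to 4, against 135, 149.5, 150.3 and 139 CPM in Mac 1 to 4 (0.48 ± 0.09). Hk1, the form found in most tissues, was 165, 162, 172 and 163 CPM in E-Mac 1 to 4, against 115, 131, 124 and 119 CPM in Mac 1 to 4 (0.44 ± 0.06). No library of one group reached into the other for any of them, and the largest edgeR adjusted p was 0.00184. Per kilobase, Hk3 carried most hexokinase transcript in both groups, 67.5 ± 4.17% in E-Mac and 69.3 ± 1.76% in Mac, and the ranges of that share overlapped. Adpgk, an ADP-dependent kinase of glucose, fell (-1.70 ± 0.15), at 220.1 ± 54.8 CPM in E-Mac and 716 ± 65.8 CPM in Mac.

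Gpi1, the isomerase of the next step, was an exception at the top of the pathway, as it fell slightly (-0.18 ± 0.07, edgeR adjusted p = 0.0383), at 755 ± 44.7 CPM in E-Mac and 856 ± 26.3 CPM in Mac. That call was lost without any single one of Mac 1 to 4 or E-Mac 1 to 3 (edgeR adjusted p = 0.0567 to 0.158, range across alternatives 0.000646 to 0.158). The phosphofructokinases, which commit sugar to glycolysis, moved in different directions. Pfkl, the liver-type subunit, rose (0.86 ± 0.10), at 101 ± 14.8 CPM in E-Mac and 55.3 ± 2.86 CPM in Mac. Pfkp, the platelet-type subunit, fell (-0.34 ± 0.08), at 87.6 ± 9.49 CPM in E-Mac and 111 ± 3.31 CPM in Mac. Pfkm, the muscle-type subunit, was low, at 3.90, 2.96, 2.56 and 3.23 CPM in E-Mac 1 to 4, against 6.09, 6.33, 6.63 and 5.67 CPM in Mac 1 to 4, and fell (-0.97 ± 0.18). The edgeR adjusted p of the 3 were 7.06e-06, 0.00224 and 0.000393, and no groups overlapped. Per kilobase Pfkl made up 66.7 ± 2.05% in E-Mac and 45.0 ± 1.49% in Mac of the 3, and Pfkp 29.1 ± 1.37% in E-Mac and 45.0 ± 1.38% in Mac.

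Directions also differed between the bifunctional enzymes that set the level of the main activator of phosphofructokinase. Pfkfb3, whose product strongly favours glycolysis, rose (0.84 ± 0.07, edgeR adjusted p = 2.20e-07), at 181 ± 9.33 CPM in E-Mac and 101 ± 5.62 CPM in Mac. Pfkfb4 fell (-0.25 ± 0.08, edgeR adjusted p = 0.0175), at 147 ± 17.7 CPM in E-Mac and 175 ± 4.22 CPM in Mac. The fall of Pfkfb4 was not called when Mac 2, E-Mac 1 or E-Mac 3 was left out (edgeR adjusted p = 0.0707, 0.0556 and 0.0557, range across alternatives 1.58e-06 to 0.0707). Per kilobase, Pfkfb3 made up 44.4 ± 2.09% in E-Mac and 27.1 ± 0.776% in Mac of the pair.

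**Figure D3:**
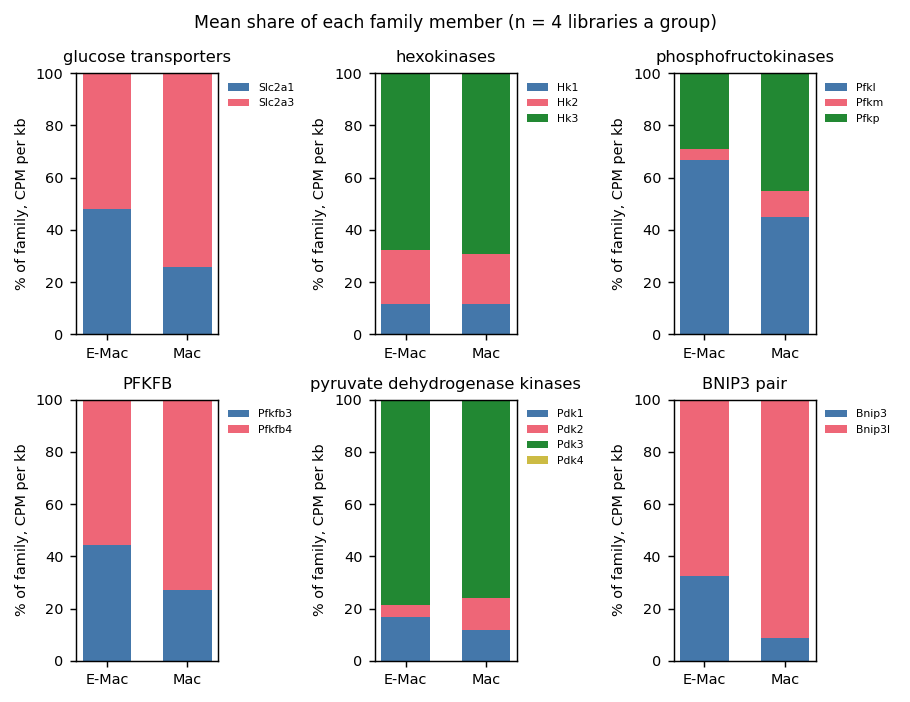
Mean share, in percent, of each gene in the summed CPM per kilobase of exon of its family, in E-Mac and in Mac (n = 4 libraries each). Slc2a1, Pfkl, Pfkfb3 and Bnip3 take larger shares in E-Mac than in Mac, whereas the hexokinase shares are nearly the same, with Hk3 at 67.5% in E-Mac and 69.3% in Mac.

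From triose phosphate to lactate, each of the 7 main enzymes that were listed and tested rose (Tpi1, Gapdh, Pgk1, Pgam1, Eno1, Pkm and Ldha). Isoenzymes of these steps went both ways. Pgam2 (-0.39 ± 0.14), Eno3 and Ldhb fell, and Eno2 and Ldhc (1.20 ± 0.21) rose. Eno1b (0.99 ± 0.15) rose as well, but whether its reads were kept apart from those of Eno1 was not tested. Of the 50-base stretches of Eno1, 49.5% also occur in transcripts of other genes. The call of Pgam2 was lost without E-Mac 2 and 4 (-0.45, edgeR adjusted p = 0.0570). Tpi1, triose phosphate isomerase, was 341, 287, 351 and 238 CPM in E-Mac 1 to 4, against 117, 116, 119 and 125 CPM in Mac 1 to 4 (1.35 ± 0.11). Pkm, pyruvate kinase, was 3173, 2868, 3296 and 2407 CPM in E-Mac 1 to 4, against 1074, 1132, 1113 and 1133 CPM in Mac 1 to 4 (1.40 ± 0.10). All E-Mac values of both genes were more than 1.5 times the highest Mac value, and E-Mac 4 was the lowest of its group. Pgk1 (0.90 ± 0.10), Eno1 (0.87 ± 0.10) and Pgam1 (0.82 ± 0.08), which carry out the steps between, rose by similar amounts. Eno1 averaged 1025 ± 141 CPM in E-Mac and 561 ± 29.2 CPM in Mac. The edgeR adjusted p of these 5 enzymes was at most 5.80e-06, and no groups overlapped.

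Gapdh, often used as a loading control, also rose (0.79 ± 0.11, edgeR adjusted p = 2.89e-05), at 193, 185, 205 and 144 CPM in E-Mac 1 to 4, against 96.3, 101, 102 and 120.5 CPM in Mac 1 to 4. The groups did not overlap. Of its transcripts, 58.4% of the 50-base stretches also occur in transcripts of 218 other annotated genes. The share was 68.0% for Pgk1, 49.5% for Eno1, 41.5% for Pgam1 and 23.7% for Pkm. The sources used here do not say how reads that match several copies were counted, so the levels of these genes are uncertain. Exons of Gm49759 overlap 15.3% of the exon bases of Pkm on the same strand.

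Aldolase cannot be read from the table. Aldoa, the main form in most tissues, had 8, 4, 1 and 4 reads in E-Mac 1 to 4, against 6, 2, 10 and 3 in Mac 1 to 4, and in GENCODE M21 there are 2 genes with that symbol but 1 row in the table. Aldoc, the form known from brain, rose from a low base (0.66 ± 0.22, edgeR adjusted p = 0.0219), at 3.76 ± 0.593 CPM in E-Mac and 2.39 ± 0.466 CPM in Mac, with overlapping groups. Its call was lost without Mac 3 or Mac 4 (edgeR adjusted p = 0.0680 and 0.0556, range across alternatives 0.0110 to 0.0680). Scaling by library size alone also ended the call of Aldoc (0.51, edgeR adjusted p = 0.0640).

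At the end of the pathway, transcripts for lactate production and export rose. Ldha, the subunit that makes lactate from pyruvate, was 811, 673, 840.2 and 622 CPM in E-Mac 1 to 4, against 307, 331, 316 and 318 CPM in Mac 1 to 4 (1.21 ± 0.10). Slc16a3, which encodes the lactate exporter MCT4, was 388, 495, 426 and 457 CPM in E-Mac 1 to 4, against 182, 168, 172 and 170.1 CPM in Mac 1 to 4 (1.35 ± 0.08). Both were higher in every E-Mac library, with edgeR adjusted p of 1.77e-07 and 1.24e-08. Slc16a1, which encodes the transporter MCT1, rose most of the glycolytic genes (1.68 ± 0.22, edgeR adjusted p = 2.83e-05) but stayed low, at 22.3, 9.90, 18.3 and 19.0 CPM in E-Mac 1 to 4, against 6.27, 5.33, 5.41 and 4.62 CPM in Mac 1 to 4. Its E-Mac values varied more than 2-fold, with E-Mac 2 the lowest. Ldhb, the subunit that favours the reverse reaction, fell (-2.42 ± 0.14, edgeR adjusted p = 7.97e-09), at 4.07 ± 0.635 CPM in E-Mac and 21.9 ± 2.02 CPM in Mac. Bsg, the chaperone of both transporters, rose (0.55 ± 0.09), and Slc16a7, which encodes MCT2, fell (-0.72 ± 0.10).

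Within E-Mac the glycolytic genes were not ordered alike. For Slc2a1, Hk1, Hk3, Pfkl, Pfkp, Tpi1, Gapdh, Pgk1, Pgam1, Eno1, Pkm and Ldha, both E-Mac 2 and E-Mac 4 lay below E-Mac 1 and 3. For Slc2a3, Hk2, Gpi1, Pfkfb3, Pfkfb4 and Slc16a3, both lay above them. Over the 21 tested glycolytic genes, 12 had E-Mac 2 and 4 both below and 6 both above E-Mac 1 and 3, against 33.0% and 25.8% of all tested genes. The granulocyte marker sum was 12818, 20216, 13500 and 17542 CPM in E-Mac 1 to 4, so it was higher in the same 2 libraries that held more collagen transcripts. The part of either in these orders was not tested.

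**Figure D4:**
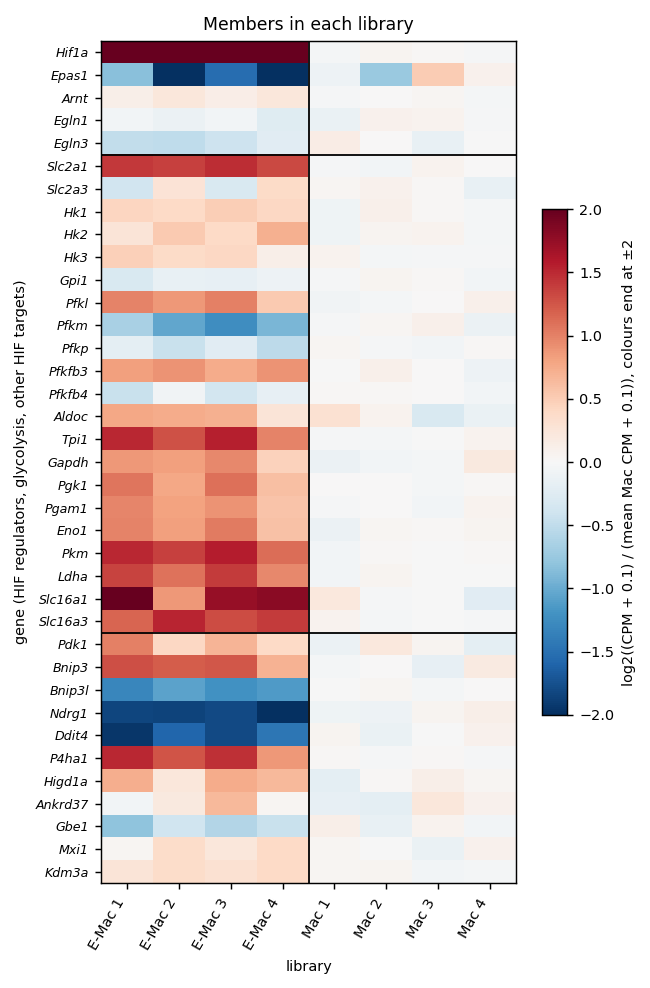
Level of each of the 37 tested genes in each library, as log2 of CPM plus 0.1 over the mean Mac CPM plus 0.1, with red above and blue below the Mac mean and colours ending at ±2. Rows are ordered as HIF regulators, glycolytic genes and other HIF targets. The E-Mac columns are red for most glycolytic rows and for P4ha1 and Bnip3, and blue for Ndrg1, Ddit4, Bnip3l and Gbe1.

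The HIF targets outside glycolysis were split, as were all tested genes (29.5% higher and 28.8% lower). Of 12 genes 11 were tested, and 6 rose, 4 fell and 1 did not pass (edgeR, adjusted p under 0.05), with a median log2 fold change of 0.27. Of those that fell 3 did so by 2-fold or more, and of those that rose 2 did. Over all tested genes 20.1% were called at that size in either direction. Summed over the 12 genes, the level was lower in E-Mac, at 545 ± 13 CPM against 646 ± 9.65 CPM in Mac (SD, n = 4 each). Without E-Mac 2 and 4 there were 5 higher and 4 lower, as Mxi1 lost its call.

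The fallers included 3 genes commonly used as hypoxia markers. Ndrg1, a stress-responsive gene strongly induced by low oxygen, was 25.4, 25.1, 26.0 and 21.7 CPM in E-Mac 1 to 4, against 86.0, 85.4, 94.5 and 99.0 CPM in Mac 1 to 4 (-1.89 ± 0.08). Ddit4, which encodes the mTORC1 inhibitor REDD1, was 18.5, 23.7, 20.4 and 26.2 CPM in E-Mac 1 to 4, against 74.0, 64.9, 71.0 and 75.5 CPM in Mac 1 to 4 (-1.68 ± 0.11). Bnip3l, which encodes the mitophagy receptor NIX, was 76.2, 89.7, 81.6 and 85.4 CPM in E-Mac 1 to 4, against 187, 194, 184 and 189 CPM in Mac 1 to 4 (-1.18 ± 0.07). For each of them all E-Mac libraries lay far below all Mac libraries, and the largest edgeR adjusted p of the 3 was 2.03e-08. Gbe1, the glycogen branching enzyme, also fell, at 20.3, 27.2, 23.7 and 26.2 CPM in E-Mac 1 to 4, against 38.8, 32.2, 37.4 and 34.2 CPM in Mac 1 to 4 (-0.55 ± 0.11, edgeR adjusted p = 0.000609). On mm10 Ndrg1 lies on chromosome 15, 66929318 to 66969640, and Ddit4 on chromosome 10, 59949669 to 59951834, both annotated as protein coding, and genes on the opposite strand overlap 8.43% of the exon bases of Ndrg1.

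Bnip3, the mitophagy receptor closest to Bnip3l, moved the opposite way (1.14 ± 0.14, edgeR adjusted p = 1.38e-05). It stood at 26.2, 24.8, 25.3 and 17.3 CPM in E-Mac 1 to 4, against 10.3, 10.7, 9.52 and 12.0 CPM in Mac 1 to 4. E-Mac 4 was the lowest of its group and still above every Mac library. Per kilobase, Bnip3 made up 32.3 ± 4.89% in E-Mac and 8.77 ± 0.726% in Mac of the pair. Since Bnip3l was the larger member, the summed level of the pair was lower in E-Mac, at 31.9 ± 1.86 CPM per kilobase against 53.5 ± 1.35 in Mac. Transcripts of other genes share 20.7% of the 50-base stretches of Bnip3 and 24.4% of those of Bnip3l, and Gm45507 on the opposite strand overlaps 22.3% of the exon bases of Bnip3.

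P4ha1, a catalytic subunit of the enzyme that hydroxylates collagen, rose most of this group (1.29 ± 0.12, edgeR adjusted p = 1.02e-06), at 98.8 ± 18.7 CPM in E-Mac and 40.3 ± 0.676 CPM in Mac. E-Mac 4 was lowest and E-Mac 1 highest, and both E-Mac 2 and 4 lay below E-Mac 1 and 3. That order held for 33.0% of all tested genes, and the part of stromal RNA in P4ha1 was not tested. P4ha2, the other catalytic subunit, was too low to test, with 4, 27, 10 and 35 reads in E-Mac 1 to 4, against 0, 2, 0 and 2 in Mac 1 to 4. Its higher values lay in E-Mac 2 and 4, where collagen transcripts were also highest, and the part of stromal RNA in them was not tested. Pdk1, the kinase that shuts pyruvate dehydrogenase, rose (0.65 ± 0.14, edgeR adjusted p = 0.00165), at 27.9 ± 5.78 CPM in E-Mac and 17.8 ± 2.31 CPM in Mac. Higd1a, a mitochondrial protein induced by hypoxia (0.60 ± 0.13), and Kdm3a, a histone demethylase (0.34 ± 0.06), rose as well, in 4 of 4 E-Mac libraries.

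Mxi1, an antagonist of MYC, was slightly higher with overlapping groups (0.27 ± 0.08, edgeR adjusted p = 0.0147). Its call was lost without Mac 3 or without E-Mac 2 and 4 (edgeR adjusted p = 0.0577 and 0.0703, range across alternatives 0.00169 to 0.225). Scaling by upper-quartile factors (0.17, edgeR adjusted p = 0.107) or by library size alone (0.12, edgeR adjusted p = 0.225) also ended the call of Mxi1. Ankrd37, a small ankyrin-repeat gene that is a HIF target, did not pass (0.24 ± 0.25, edgeR adjusted p = 0.427), at 2.40 ± 0.578 CPM in E-Mac and 2.03 ± 0.306 CPM in Mac, where precision is limited by few reads.

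A longer hand-made list of 40 further HIF target genes held 32 tested members, of which 16 rose and 7 fell. Over all tested genes 29.5% rose and 28.8% fell. The median log2 fold change of the list was 0.54. By smallest adjusted p the leading ones that rose were the angiogenic factor Vegfa (2.44 ± 0.10) and the cytokine Mif (2.06 ± 0.13). Mif averaged 68.5 ± 13.9 CPM in E-Mac and 16.4 ± 0.937 CPM in Mac. Ppfia4 (-2.31 ± 0.09), Selenbp1 (-1.48 ± 0.10), Narf (-0.92 ± 0.08) and Ccng2 (-0.67 ± 0.11) fell. Car9, a carbonic anhydrase used as a hypoxia marker, did not pass (-0.12 ± 0.23), at 3.05 ± 0.625 CPM in E-Mac and 3.31 ± 0.631 CPM in Mac. Adm, which hypoxia induces in many cells, was too low to test. Lox (5.51 ± 1.13), a collagen cross-linking enzyme known from fibroblasts, rose with a wide spread in E-Mac, at 22.1 ± 19.9 CPM in E-Mac and 0.470 ± 0.312 CPM in Mac. Its levels were 4.68, 34.9, 5.66 and 43.3 CPM in E-Mac 1 to 4, highest in the libraries with the highest collagen sum. Without E-Mac 2 and 4 its log2 fold change was 3.42, and the part of stromal RNA was not tested.

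Around pyruvate, 12 of 13 listed genes were tested, of which 4 rose and 3 fell, the median being 0.07. These counts were near the shares over all tested genes, 29.5% higher and 28.8% lower. The phosphatases Pdp1 (1.20 ± 0.14) and Pdp2 (0.73 ± 0.12), which reactivate pyruvate dehydrogenase, rose, as did Mpc1 (0.44 ± 0.09) of the mitochondrial pyruvate carrier and Dlat (0.44 ± 0.10). The carrier's other subunit Mpc2 (-0.59 ± 0.09), the kinase Pdk2 (-1.23 ± 0.19) and the phosphatase regulator Pdpr (-0.42 ± 0.12) fell. The catalytic subunits Pdha1 (-0.05 ± 0.07) and Pdhb (-0.15 ± 0.07) did not pass. Per kilobase, Pdk3 carried most of the kinase transcript, at 78.4 ± 1.84% in E-Mac and 75.8 ± 1.33% in Mac, and Pdk1 carried 16.7 ± 2.61% in E-Mac and 11.9 ± 0.664% in Mac.

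In neighbouring pathways of sugar metabolism calls went both ways, as they did over all tested genes (29.5% higher and 28.8% lower). In the pentose phosphate pathway, 6 of 9 tested genes fell and 2 rose, with a median of -0.33. The entry enzyme G6pdx (-0.42 ± 0.06) and the ribose-phosphate enzyme Prps2 (-0.79 ± 0.12) fell, whereas Pgd (0.59 ± 0.07) and Taldo1 (0.34 ± 0.09) rose. Of 18 tested glycogen genes 6 rose and 8 fell, the median being -0.01. The lysosomal glucosidase Gaa (1.17 ± 0.10) rose, and the primer Gyg (-0.71 ± 0.07) and the kinase subunit Phka2 (-0.68 ± 0.08) fell. Glycogen synthase Gys1 (-0.62 ± 0.11) fell together with Gbe1.

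In the tricarboxylic acid cycle, 10 of 23 tested genes were higher and 6 lower, with a median of 0.09. The shares over all tested genes were 29.5% higher and 28.8% lower. Acod1, the itaconate-making enzyme of activated macrophages, rose far beyond the others (6.17 ± 0.27, edgeR adjusted p = 5.88e-08), at 738 ± 63.2 CPM in E-Mac and 10.4 ± 4.85 CPM in Mac. Mdh2 (0.82 ± 0.07) and Sdhb (0.54 ± 0.08) rose, and Idh3g (-0.49 ± 0.07) and Idh1 (-0.37 ± 0.09) fell. Among 17 tested further isoenzymes of glycolysis 7 rose and 7 fell. Those include the neuronal enolase Eno2 (3.15 ± 0.36), which rose, and the muscle enolase Eno3 (-1.73 ± 0.10), which fell.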

How the data were processed

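PolyA RNA of 8 sorted libraries was extracted with an RNeasy micro kit and made into VAHTS mRNA-seq V3 libraries, per the labels. The authors deposited raw counts, reads per gene symbol. The programs bcl2fastq, HISAT2, featureCounts with Subread, and DESeq2 and the build mm10 are named in the submitters' processing notes. The sources used here give neither versions nor the annotation, strand or multi-mapping settings. Of 53673 names, 26 in the form of dates were left out (0.134 to 0.160% of counts).

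The test was edgeR's quasi-likelihood test (version 4.0.16, R 4.3.3, robust) on the 13412 genes kept by filterByExpr with a minimum count of 10 and a minimum total of 15. Libraries were scaled by TMM, and p-values were adjusted by Benjamini-Hochberg. The standard error is the log2 fold change divided by the square root of F. The fit was tested on simulated data. Replicates all differed by more than sampling noise (chi-square over its degrees of freedom 4.85 or more), so each counted as 1 sample. Exon lengths, overlaps and shared 50-base stretches came from GENCODE M21 on mm10, promoters from RefSeq. Alternatives were no filter, scaling by RLE, by upper-quartile factors or by library size only, an adjusted p under 0.01, DESeq2 1.42.0, limma-voom 3.58.1, the replicate number as a block, each library left out, and E-Mac 2 and 4 left out.

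The members and lists were chosen with earlier results of these data known. Values in every library were given for the 6 largest increases and the 6 largest decreases among called members and for fixed key genes. From each further list the called genes with the smallest adjusted p were named, with others chosen after their values were seen. Intervals of counts cover counting error only.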

Additional observations from a re-analysis of the deposited data

Results flagged for a closer look

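In 4 of the 78 sets of 4 libraries examined (39 genes in 2 groups), 1 library stood apart from the other 3 by a gap, relative to the whole range, above Dixon's 95% critical value. Chance alone gives about 1 in 20 such sets. Bnip3 was 17.3 CPM in E-Mac 4, against 24.8 to 26.2 CPM in E-Mac 1 to 3. Aldoc was 2.88 CPM in E-Mac 4, against 3.97 to 4.13 CPM in the other E-Mac libraries. Hk3 was 335 CPM in Mac 1, against 311 to 314 CPM in the other Mac libraries. Pfkfb4 was 169 CPM in Mac 4, against 176 to 177 CPM in the other Mac libraries.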

How the results depend on the processing

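Of the 37 tested genes 29 kept their direction and their side of the threshold under all 17 alternatives, and the exceptions were Slc2a3, Gpi1, Pfkfb4, Aldoc, Arnt, Egln1, Egln3 and Mxi1. Slc2a3, not called in the main test, turned negative with upper-quartile factors (-0.0602), library size only (-0.11), limma-voom (-0.00495) and the replicate block (-0.00462). It was also negative without Mac 4 (-0.02), E-Mac 2 (-0.03) or E-Mac 4 (-0.10), the range with 1 library left out being -0.10 to 0.15. Leaving out both E-Mac 2 and 4 gave -0.34 (edgeR adjusted p = 4.22e-05, range across alternatives 4.22e-05 to 0.982). Egln1 was called lower with upper-quartile factors and library size only (-0.21 and -0.26). All genes called were 7814 in the main test and 7233 to 7986 with 1 library left out, and higher genes were 50.6% of calls, 41.8% with upper-quartile factors and 37.4% with library size only. HIF regulators called higher numbered 1 with upper-quartile factors, library size only, the replicate block, an adjusted p under 0.01 and without E-Mac 2 and 4, and 1 to 2 with 1 library left out. With an adjusted p under 0.01, called HIF regulators numbered 2, with 1 lower, and glycolytic genes called lower numbered 2. Glycolytic genes called lower were 2 to 4 with 1 library left out. The replicate numbers did not pair the libraries (correlations of -0.11 to 0.03 between same-numbered libraries), and as a block they gave 7458 calls, of which 7376 were calls of the main test in the same direction. The block ended the calls of Gpi1 (-0.18) and Arnt (0.18). The causes were not tested. Depth limits Epas1, P4ha2, Ankrd37 and Aldoc, which had few reads. Aldoa had few reads as well, under a symbol that 2 genes carry in GENCODE M21.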
